A study of Mus musculus with 12 samples.

Results

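The genes of mitosis and the G2/M transition were compared in cultures of mesenchymal stem cells (MSC) and MSC-like cells from 3 mouse tissues. MSC are adherent, fibroblast-like cells that divide in culture and can form bone, fat and cartilage. The list holds 38 genes, from the cyclins and kinases that start mitosis to the proteins that separate the daughter cells, and all probes that the platform annotation assigns to these symbols were taken. A named probe was found for 35 of them (70 probe entries), of 18889 named genes on the array, and 26 had a probe bright enough to be tested, of 10797 genes tested in all. No named probe was found for Ccnb1, Mki67 or Kif20a.

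The samples were cells derived from heart and cells derived from kidney, both described by the labels as similar to bone marrow MSC, and MSC derived from bone marrow itself. Each tissue of origin was measured on 4 single-colour Illumina bead arrays with biotin-labelled RNA amplified from total RNA, and the series calls the 4 biological replicates. No treatment is named, and the sources used here do not give strain, age, passage or the sorting and culture steps. Nothing says that the replicates came from separate animals, so the tests measure no more than the spread among these 12 samples. Levels are background-corrected, quantile-normalized intensities on a log2 scale, so a difference of 1 is a 2-fold change, and levels of different probes are not set against each other.

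Entry into mitosis is driven by Cdk1 bound to A- and B-type cyclins, switched on by Cdc25 phosphatases. Aurora and Polo-like kinases then build the spindle, kinetochores attach chromosomes to it, and the spindle checkpoint holds back the anaphase-promoting complex (APC/C) until all are attached. Most of these genes are transcribed late in the cell cycle and silent in resting cells: MuvB complexes with B-MYB (Mybl2) and FOXM1 switch them on in dividing cells, and MuvB with E2F4 and a pocket protein holds them off in quiescent ones. MuvB binds the cell cycle homology region (CHR) near the start site, typically TTTGAA, often beside CCAAT boxes bound by NF-Y.

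The promoters of 4 tested members follow, from RefSeq (mouse assembly GRCm38.p6), because they show how these elements are laid out in genes whose RNA differed between the tissues. Each runs 5′ to 3′ on the gene's strand from 250 bases before the annotated start to 50 bases after its first base. Capitals mark every TTTGAA or TTCGAA and every CCAAT, each searched on both strands, so that TTCAAA and ATTGG are matches read from the opposite strand; no marked matches overlap. Cdk1 (chr10:69352863-69353162, minus strand) encodes the mitotic kinase, Ndc80 (chr17:71526808-71527107, minus strand) the kinetochore protein that grips microtubules, Espl1 (chr15:102296043-102296342, plus strand) separase, which cuts cohesin at anaphase, and Kif23 (chr9:61946750-61947049, minus strand) the motor subunit of centralspindlin.
Cdk1: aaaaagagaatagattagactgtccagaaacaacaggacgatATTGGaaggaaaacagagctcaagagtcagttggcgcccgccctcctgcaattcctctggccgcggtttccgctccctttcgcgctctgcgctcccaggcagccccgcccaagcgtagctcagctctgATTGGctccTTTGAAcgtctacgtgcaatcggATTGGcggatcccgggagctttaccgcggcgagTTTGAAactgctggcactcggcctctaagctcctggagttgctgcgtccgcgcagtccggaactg
Ndc80: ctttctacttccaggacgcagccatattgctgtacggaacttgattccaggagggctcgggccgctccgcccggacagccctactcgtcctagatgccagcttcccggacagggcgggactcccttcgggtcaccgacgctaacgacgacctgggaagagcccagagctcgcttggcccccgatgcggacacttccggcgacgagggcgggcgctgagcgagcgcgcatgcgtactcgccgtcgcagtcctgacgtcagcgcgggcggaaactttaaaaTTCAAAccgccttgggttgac
Espl1: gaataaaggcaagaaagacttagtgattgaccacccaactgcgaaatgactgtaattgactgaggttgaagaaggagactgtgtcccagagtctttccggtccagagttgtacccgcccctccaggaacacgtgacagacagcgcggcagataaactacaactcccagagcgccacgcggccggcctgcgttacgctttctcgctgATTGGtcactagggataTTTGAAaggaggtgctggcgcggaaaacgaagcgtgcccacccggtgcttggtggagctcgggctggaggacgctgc
Kif23: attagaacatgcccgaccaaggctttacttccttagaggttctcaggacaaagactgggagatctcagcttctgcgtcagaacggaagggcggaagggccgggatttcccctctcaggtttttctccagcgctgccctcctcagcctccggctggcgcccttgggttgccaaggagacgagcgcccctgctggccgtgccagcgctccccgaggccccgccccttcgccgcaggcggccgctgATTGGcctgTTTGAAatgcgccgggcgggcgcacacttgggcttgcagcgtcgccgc

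The Cdk1 window holds 2 TTTGAA matches, with first bases at -71 and -15 from the start site, and 3 CCAAT matches, at -208, -80 and -48. Espl1 holds 1 of each kind, with TTTGAA at -27 and the inverted CCAAT at -44, and Kif23 likewise, with TTTGAA at 3 and the inverted CCAAT at -7. Ndc80 holds a single inverted TTTGAA, at 30, and no CCAAT in this window.

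A promoter was found for 32 of the 38 listed genes, 34 promoters in all because Ect2 and Prc1 have 2 each. The 2 windows of each of these genes largely overlap, so the counts below hold their matches in both windows. TTTGAA or TTCGAA lay in 28 of the 34 (82.4%), against 19.2% of all 32851 promoters of the same length in the table and 22.7% of 22 promoters of S-phase genes. CCAAT lay in 27 of the 34 (79.4%), against 37.4% of all promoters and 68.2% of those of S-phase genes. Both kinds together lay in 73.5% of the members' promoters, 7.52% of all promoters and 18.2% of those of S-phase genes. Of the 39 TTTGAA or TTCGAA matches, 29 began within 100 bases of the start site, with a median first base at -15, while the 64 CCAAT matches had a median first base at -69.5. The windows reach only 250 bases before the start and 50 after it, and match positions in other promoters were not counted. Neither TTTGAA nor TTCGAA was found in the windows of Birc5, Ccnb1, Cenpe, Mad2l1, Nuf2 and Nusap1. These matches are a description of letters, not of binding.

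**Figure D1:**
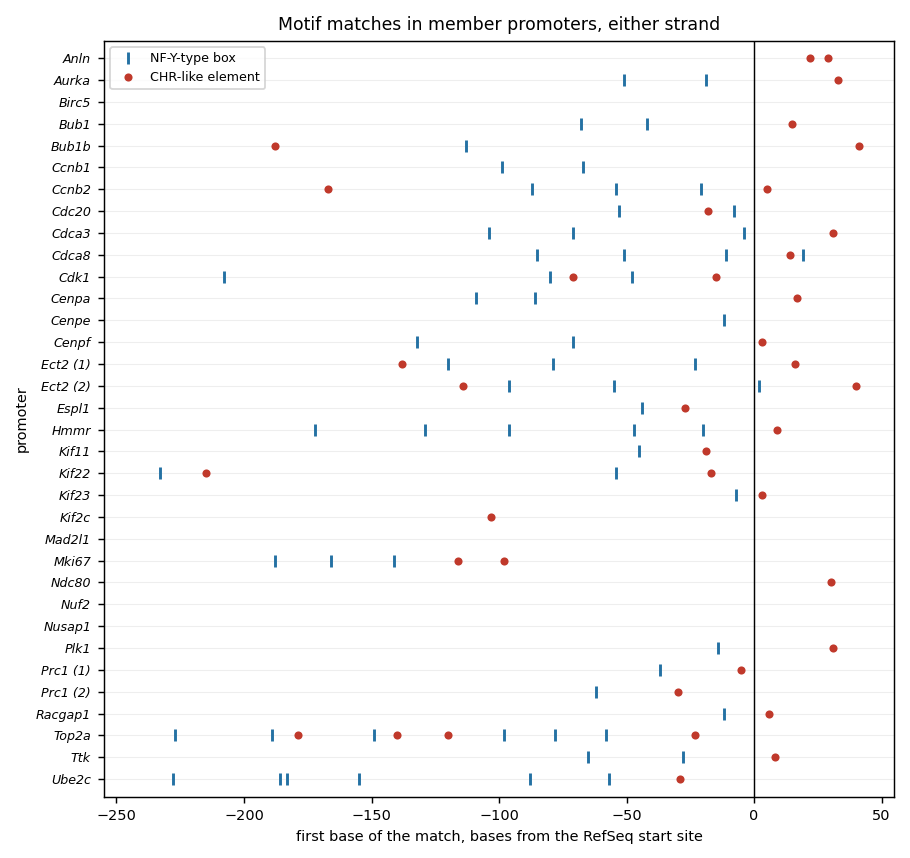
First base of each match (horizontal axis, bases from the RefSeq start site) in the 34 promoters of 32 listed genes (rows), either strand. Red points are CHR-like elements (TTTGAA or TTCGAA) and blue bars NF-Y-type boxes (CCAAT). Within 100 bases of the start lie 29 of the 39 red points, in windows from 250 bases before the start to 50 after it.

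Across arrays, raw signal averaged 935 to 1066 units in heart cells, 1004 to 1049 in kidney cells and 754 to 950 in bone marrow MSC, lowest on bone marrow replicate 1. Log2 levels of 2 arrays of the same tissue correlated at 0.984 to 0.995 when compared gene by gene (genes are not replicates). Every array detected the MSC markers Cd44, Thy1, Eng, Itgb1, Pdgfra and Pdgfrb. Ptprc and Itgam of blood cells, Kdr and Vwf of endothelium, Epcam of epithelium and Myh6 and Actn2 of heart muscle were detected on none. Other epithelial markers were detected: Krt8 on 4 arrays of each tissue, and Cdh1 on 3 heart, 4 kidney and 4 bone marrow arrays. Endothelial Tek was detected on 3 heart, 0 kidney and 2 bone marrow arrays. In the same order Pecam1 was detected on 0, 2 and 1 arrays and Cdh5 on 1, 1 and 0. The summed raw signal of 5 blood-cell markers was 744 to 828 units in heart cells, 694 to 769 in kidney cells and 632 to 723 in bone marrow MSC, with Csf1r alone detected in each tissue. The summed signals of 5 endothelial, 4 epithelial and 3 heart-muscle markers overlapped between all tissues. In each tissue 3 endothelial markers (not the same ones throughout), 2 epithelial and all 3 heart-muscle markers were detected on 0 arrays. The part of other cell types in the changes given here was not tested.

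Heart-derived cells had less RNA of nearly every mitotic gene than bone marrow MSC. Of the 26 tested members 24 fell, 0 rose and 2 did not pass the test, against 29.6% of all tested genes called lower and 26.4% called higher in this comparison. The median member lay 1.06 log2 units below bone marrow MSC (log2 change -1.06, range -1.63 to -0.15), where the median over all genes was -0.03. At least 2-fold falls were seen for 14 members, against 5.59% of all genes. For 24 members every heart array lay below every bone marrow array, which held for 26.3% of all genes. With no scaling between arrays, an alternative added after the data were seen, 21 members fell and Tpx2, Cenpf and Prc1 no longer passed (adjusted p = 0.0814, 0.395 and 0.356), while 12.5% of all genes were called lower and 35% higher. In RNA from whole cultures, fewer dividing cells and less RNA per dividing cell cannot be told apart.

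Kidney-derived cells lay between the other two cultures for most members. Against bone marrow MSC, 20 members fell, 1 (Kif23) rose and 5 (Tpx2, Cenpf, Prc1, Ect2 and Anln) did not pass, with 24.3% of all genes called lower and 19.9% higher. On the probe entry used, no member reached a 2-fold change, which 3.56% of all genes did downward and 4.9% upward. Other kept entries of Cdca3 and Cdc25c did, at -1.09 and -1.08. The members' median was -0.45, against -0.04 over all genes. The count of members called depends on how arrays are scaled. With no scaling, 4 members fell (Cdca3, Cdc25c, Bub1b and Kif11) and 2 rose (Kif23 and Ect2), while 5.84% of all genes were called lower and 34.6% higher. That choice shifts the median of all genes to 0.27, and the members' median then lay 0.41 log2 units below it (a difference of -0.41), against -0.42 with scaling. The kidney falls of members other than Cdca3, Cdc25c, Bub1b and Kif11, given below, did not pass with no scaling.

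Set directly against heart cells, kidney cells had higher levels of 21 members and lower levels of 0, with 5 (Cdca3, Nusap1, Cdc20, Ect2 and Anln) not past the test, where 24.9% of all genes were called higher and 24.1% lower. The median member was 0.57 log2 units higher in kidney cells, against 0.02 over all genes. No member differed 2-fold on the probe entry used, where 3.86% of all genes did upward and 6.96% downward. A second Top2a probe did, at 1.10. Heart cells were lower than both kidney cells and bone marrow MSC, by the test in each comparison, for 21 of 26 members, against 17% of all genes. In kidney minus heart cells some of these calls depended on the processing. Cenpf (0.35, adjusted p = 0.0367) did not pass with no scaling, no detection filter or the replicate number as a block (adjusted p = 0.122, 0.128 and 0.0561). It also did not pass without heart replicate 2, 3 or 4, or without kidney replicate 1, 2 or 4, so this call is weak. Kif2c did not pass with no scaling or without heart replicate 3 (adjusted p = 0.0516 and 0.0746). Nor did Cdk1 on the authors' processed intensities or Cenpa as a mean over probes (adjusted p = 0.567 and 0.178). Mean levels were lowest in heart and highest in bone marrow for 23 of 26 members and for 2608 of 10797 genes. The 3 comparisons share arrays, so their counts are not independent of each other.

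**Figure D2:**
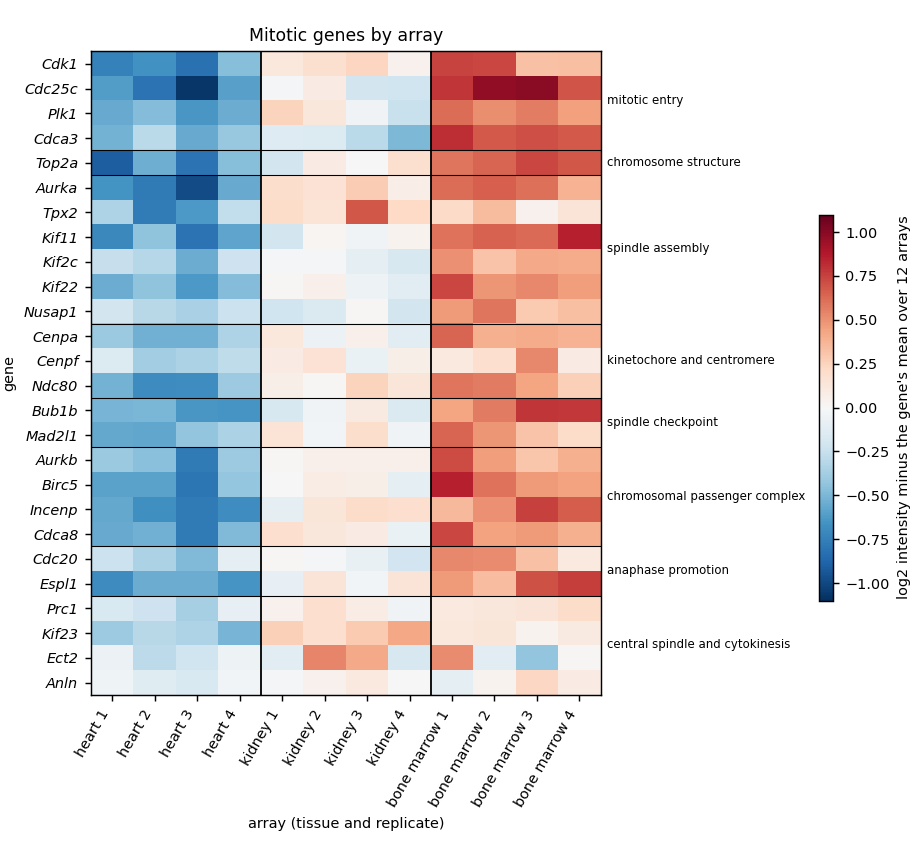
Log2 intensity of each of the 26 tested members (rows, grouped by role) minus its mean over the 12 arrays (columns), with blue below and red above that mean. The heart columns are blue for nearly every gene and the bone marrow columns red, with kidney between them; Prc1 and Anln, near the bottom, stay pale on every array.

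**Figure D3:**
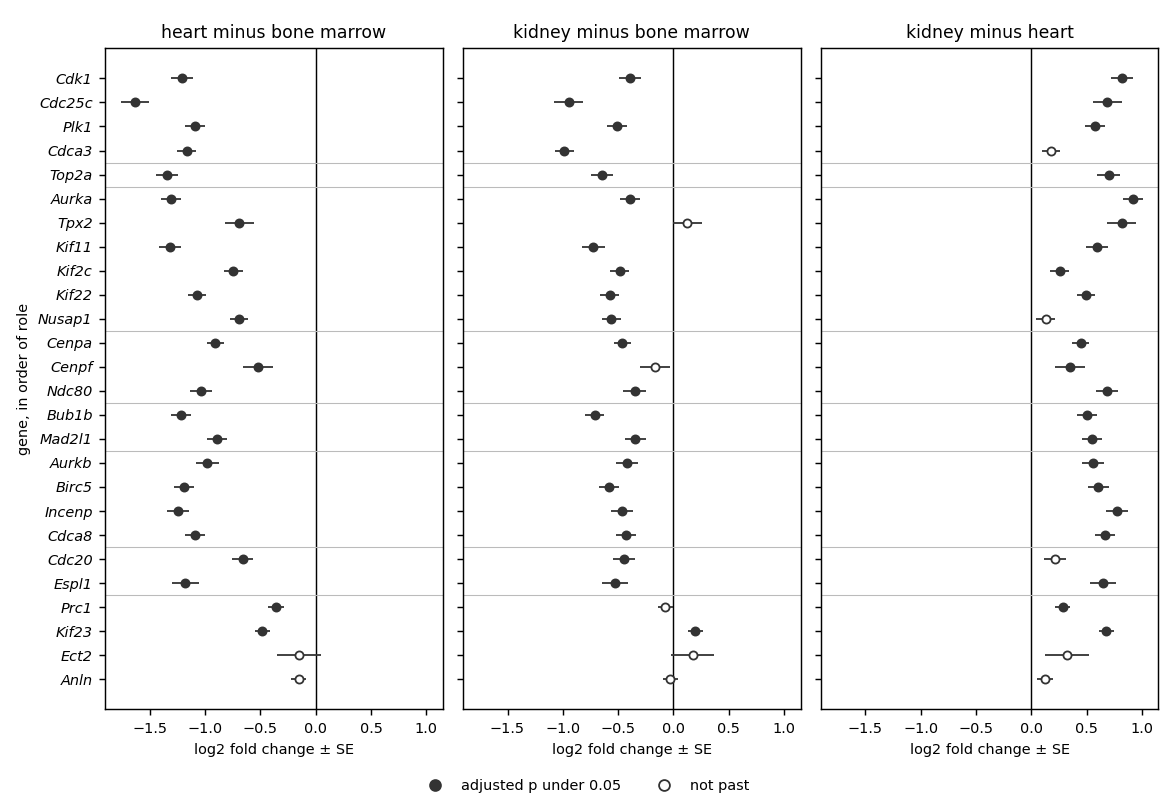
Log2 fold change ± SE of the 26 tested members in the 3 comparisons (4 arrays per tissue); filled points passed an adjusted p under 0.05. Of the 26, 24 fell in heart minus bone marrow, 20 fell and 1 rose in kidney minus bone marrow, and 21 rose in kidney minus heart.

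Among the genes of mitotic entry, all 4 that were tested fell in both heart and kidney cells. For this and the role counts that follow, 29.6% of all genes were called lower in heart and 24.3% in kidney cells. Cdc25c, the phosphatase that removes the inhibitory phosphates from Cdk1, had log2 levels of 7.57, 7.37, 7.12 and 7.59 in heart cells, 8.17, 8.27, 7.98 and 7.97 in kidney cells, and 8.97, 9.16, 9.17 and 8.87 in bone marrow MSC. The 3 tissues did not overlap, with heart lowest and bone marrow highest. It had the largest fall of any member in heart cells, with a log2 change of -1.63 ± 0.13 against bone marrow (3.10-fold, adjusted p = 1.79e-09), and the kidney change was -0.95 ± 0.13 (adjusted p = 6.37e-06). The second probe entry kept for Cdc25c changed by -1.84 in heart cells and by -1.08 in kidney cells.

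Cdca3, which helps to degrade the Cdk1 inhibitor Wee1, was low in both heart and kidney cells. It read 11.25, 11.47, 11.21 and 11.35 in heart cells, 11.63, 11.62, 11.47 and 11.28 in kidney cells, and 12.58, 12.44, 12.47 and 12.44 in bone marrow MSC. Heart and kidney arrays overlapped, and both lay below all bone marrow arrays. Its log2 change was -1.16 ± 0.08 in heart cells (adjusted p = 5e-10) and -0.99 ± 0.08 in kidney cells (adjusted p = 1.06e-08), the largest kidney fall among the members. The difference of 0.18 ± 0.08 between kidney and heart cells did not pass (adjusted p = 0.091), though it did without heart replicate 2 (adjusted p = 0.0486) or kidney replicate 4 (adjusted p = 0.0178). On the second probe entry kept for Cdca3 this difference was 0.04, not past the test over all probes (adjusted p = 0.77). That entry changed by -1.13 in heart cells and by -1.09 in kidney cells.

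Cdk1 itself fell by 1.21 on the log2 scale in heart cells and by 0.39 in kidney cells, and Plk1, the Polo-like kinase that activates Cdc25c and matures centrosomes, by 1.09 in heart cells and by 0.51 in kidney cells. The Cdk1 values come from the second of 3 table entries under a single probe identifier, of which 2 were bright enough to test, and the annotation does not say which entry it describes. The dimmer first entry changed by -0.44 in heart cells (adjusted p = 0.0777 over all genes when first entries alone were used) and by -0.29 in kidney cells (adjusted p = 0.271), neither past the test. The cyclins Ccna2 and Ccnb2, Cdk1's partners, had 1 probe each that was detected on 0 of 12 arrays.

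Top2a, the topoisomerase that untangles sister DNA before anaphase, stood for chromosome structure. Its log2 levels were 9.89, 10.26, 9.99 and 10.33 in heart cells, 10.60, 10.89, 10.80 and 10.97 in kidney cells, and 11.39, 11.44, 11.54 and 11.48 in bone marrow MSC. No arrays of different tissues overlapped. The fall was 1.34 log2 units in heart cells (log2 change -1.34 ± 0.10, adjusted p = 8.16e-10) and the kidney change was -0.65 ± 0.10 (adjusted p = 3.08e-05). A second Top2a probe gave -1.42 in heart cells and -0.32 in kidney cells, of which the kidney change did not pass the test over all probes (adjusted p = 0.0609). Between kidney and heart cells that probe differed by 1.10 (adjusted p = 6.33e-07 over all probes).

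All 6 tested genes of spindle assembly fell in heart cells and 5 in kidney cells. Kif11, the kinesin that pushes spindle poles apart, read 8.72, 8.99, 8.62 and 8.85 in heart cells, 9.23, 9.45, 9.40 and 9.47 in kidney cells, and 10.03, 10.08, 10.06 and 10.29 in bone marrow MSC. The tissues were separate on every array. Its log2 change was -1.32 ± 0.10 in heart cells (adjusted p = 1.22e-09) and -0.72 ± 0.10 in kidney cells (adjusted p = 8.6e-06).

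Aurka, the centrosome kinase Aurora A, read 11.19, 11.06, 10.86 and 11.29 in heart cells, 12.03, 12, 12.12 and 11.91 in kidney cells, and 12.46, 12.50, 12.45 and 12.22 in bone marrow MSC. Again no tissues overlapped, but kidney lay nearer to bone marrow than to heart. Kidney cells exceeded heart cells by 0.92 ± 0.09 log2 units (adjusted p = 5.41e-08). This was the largest such difference among the members on the probe entries used, though the second Top2a probe gave 1.10. Against bone marrow the changes were -1.31 ± 0.09 in heart cells (adjusted p = 2.19e-10) and -0.39 ± 0.09 in kidney cells (adjusted p = 0.00155). Tpx2, which activates Aurora A on microtubules, fell by 0.69 in heart cells but had a kidney change of 0.13 that did not pass (adjusted p = 0.476). Of the other spindle genes, the chromosome-moving kinesin Kif22 fell by 1.08 in heart cells and by 0.58 in kidney cells, and the microtubule depolymerase Kif2c by 0.74 in heart cells and by 0.49 in kidney cells. Nusap1, a microtubule bundler, fell by 0.69 in heart cells and by 0.56 in kidney cells, and its difference of 0.13 between kidney and heart cells did not pass (adjusted p = 0.216). The Nusap1 values rest on the second of 3 entries under a repeated identifier. The other entries were detected on 0 arrays and a separate Nusap1 probe on 3, so Nusap1 could not be tested with first entries only. The spindle protein Hmmr had no detected probe.

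At kinetochores and centromeres, all 3 tested genes fell in heart cells and 2 in kidney cells. Ndc80 read 9.19, 9.02, 9.03 and 9.31 in heart cells, 9.78, 9.73, 9.96 and 9.85 in kidney cells, and 10.30, 10.29, 10.15 and 9.98 in bone marrow MSC. The tissues did not overlap, although the highest kidney array and the lowest bone marrow array nearly met. The log2 change was -1.04 ± 0.10 in heart cells (adjusted p = 2.86e-08) and -0.35 ± 0.10 in kidney cells (adjusted p = 0.00721). Cenpa, the histone that marks centromeres, fell by 0.91 in heart cells and by 0.46 in kidney cells. A second Cenpa probe changed by -0.61 in heart cells and by -0.73 in kidney cells. That probe was dim, detected on 10 of 12 arrays, with raw means of 165 to 180 units by tissue beside array medians of 129.8 to 149. Between kidney and heart cells the 2 Cenpa probes differed, at 0.45, past the test, on the brighter and -0.12, not past, on the dim one. Cenpf, a large protein of the outer kinetochore, fell by 0.52 in heart cells, while its kidney change of -0.17 did not pass (adjusted p = 0.337). The Ndc80 partner Nuf2 and the kinesin Cenpe were not detected on any array.

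Both tested genes of the spindle checkpoint fell in heart and in kidney cells. Bub1b (BubR1), which holds Cdc20 inactive, read 10.93, 10.94, 10.80 and 10.79 in heart cells, 11.26, 11.40, 11.54 and 11.28 in kidney cells, and 11.88, 12.01, 12.23 and 12.22 in bone marrow MSC. The 3 sets of arrays were separate. Its log2 change was -1.22 ± 0.09 in heart cells (adjusted p = 5.44e-10) and -0.71 ± 0.09 in kidney cells (adjusted p = 1.97e-06), and a second probe gave -1.38 in heart cells and -0.81 in kidney cells. Mad2l1 (Mad2), the other arm of the checkpoint signal, fell by 0.89 in heart cells and by 0.34 in kidney cells, with a second probe at -0.73 in heart cells and, not past the test, -0.19 in kidney cells. Bub1 had no detected probe, and the kinase Ttk was detected on 1 bone marrow array only.

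The chromosomal passenger complex, which corrects faulty attachments and later acts at the cleavage furrow, fell as a whole: all 4 subunits were lower in heart and in kidney cells. Incenp, its scaffold, read 9.43, 9.32, 9.21 and 9.31 in heart cells, 9.89, 10.13, 10.19 and 10.18 in kidney cells, and 10.35, 10.49, 10.74 and 10.66 in bone marrow MSC. No tissues overlapped. The log2 change was -1.24 ± 0.10 in heart cells (adjusted p = 2.12e-09) and -0.46 ± 0.10 in kidney cells (adjusted p = 0.000807). Birc5 (survivin) fell by 1.19 in heart and 0.58 in kidney cells, Cdca8 (borealin) by 1.09 in heart and 0.43 in kidney cells, and the kinase Aurkb by 0.98 in heart and 0.42 in kidney cells. Heart-cell log2 changes of the 3 kept Birc5 entries spanned -1.26 to -1.14.

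Both tested genes of anaphase promotion fell in both tissues. Their kidney falls did not pass with no scaling between arrays (adjusted p = 0.398 for Espl1 and 0.437 for Cdc20). Espl1 read 7.42, 7.56, 7.56 and 7.46 in heart cells, 8.02, 8.25, 8.08 and 8.25 in kidney cells, and 8.58, 8.45, 8.81 and 8.87 in bone marrow MSC. The tissues were separate, with the heart arrays close together. Its log2 change was -1.18 ± 0.12 in heart cells (adjusted p = 6.78e-08) and -0.53 ± 0.12 in kidney cells (adjusted p = 0.00128). Cdc20, the activator of the APC/C, fell by 0.66 in heart cells and by 0.45 in kidney cells. Its values come from the last of 4 entries under 1 repeated identifier, the brightest. The kidney fall did not pass with first entries only (-0.27, adjusted p = 0.163) or on the authors' processed intensities (-0.28, adjusted p = 0.167). Between kidney and heart cells the entry used differed by 0.22, which did not pass (adjusted p = 0.0739), while the other entries gave 0.46, 0.26 and 0.41, all past the test over all probes. The mean over the 4 entries (0.34, adjusted p = 0.0116) and the authors' processed intensities (0.48, adjusted p = 0.0156) passed, as did the entry used without bone marrow replicate 1 or 4 or heart replicate 4 (adjusted p = 0.0402, 0.0416 and 0.0283). Ube2c, the ubiquitin-conjugating enzyme of the APC/C, was detected on 1 kidney array only.

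Of the 4 tested genes of the central spindle and cytokinesis, 2 fell in heart cells, with a median log2 change of -0.26 over the 4. In kidney cells 1 rose and 3 did not pass. Over all genes 29.6% fell in heart cells and 19.9% rose in kidney cells. Whether these 4 genes differ from all genes was not tested. Kif23 read 13.05, 13.14, 13.11 and 12.94 in heart cells, 13.71, 13.64, 13.73 and 13.88 in kidney cells, and 13.56, 13.58, 13.48 and 13.54 in bone marrow MSC. Heart arrays lay below all others, and every kidney array lay above every bone marrow array. The log2 change was -0.48 ± 0.07 in heart cells (adjusted p = 4.04e-06) and 0.20 ± 0.07 in kidney cells (adjusted p = 0.0225). The kidney rise rests on 1 probe: the 3 other kept Kif23 probes gave 0.03, 0.02 and -0.04, none past the test, and the mean over probes gave 0.05 (adjusted p = 0.592). It was also not past the test without bone marrow replicate 3 (adjusted p = 0.0668) or kidney replicate 4 (adjusted p = 0.0942), while all 4 probes fell in heart cells.

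Prc1, which bundles the antiparallel microtubules of the central spindle, fell by 0.36 in heart cells, and its kidney change of -0.07 did not pass (adjusted p = 0.43). Anln (anillin), the scaffold of the contractile ring, read 13, 12.91, 12.88 and 13.02 in heart cells, 13.02, 13.10, 13.15 and 13.05 in kidney cells, and 12.94, 13.08, 13.27 and 13.14 in bone marrow MSC. Bone marrow arrays overlapped both other tissues, and the kidney arrays lay above the heart arrays by a narrow margin. Neither -0.16 ± 0.07 in heart cells (adjusted p = 0.0736) nor -0.03 ± 0.07 in kidney cells (adjusted p = 0.793) passed. The heart value did pass without bone marrow replicate 1 (adjusted p = 0.011), the array with the lowest raw signal, and was 0.10 with no scaling between arrays (adjusted p = 0.555).

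Ect2, the exchange factor that switches on RhoA at the furrow, read 6.78, 6.56, 6.64 and 6.79 in heart cells, 6.74, 7.39, 7.27 and 6.68 in kidney cells, and 7.37, 6.72, 6.42 and 6.86 in bone marrow MSC. All tissues overlapped, and the kidney and bone marrow arrays were scattered. The changes of -0.15 ± 0.20 in heart cells (adjusted p = 0.551) and 0.17 ± 0.20 in kidney cells (adjusted p = 0.514) did not pass. Racgap1, the partner of Kif23 in centralspindlin, was not detected.

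**Figure D4:**
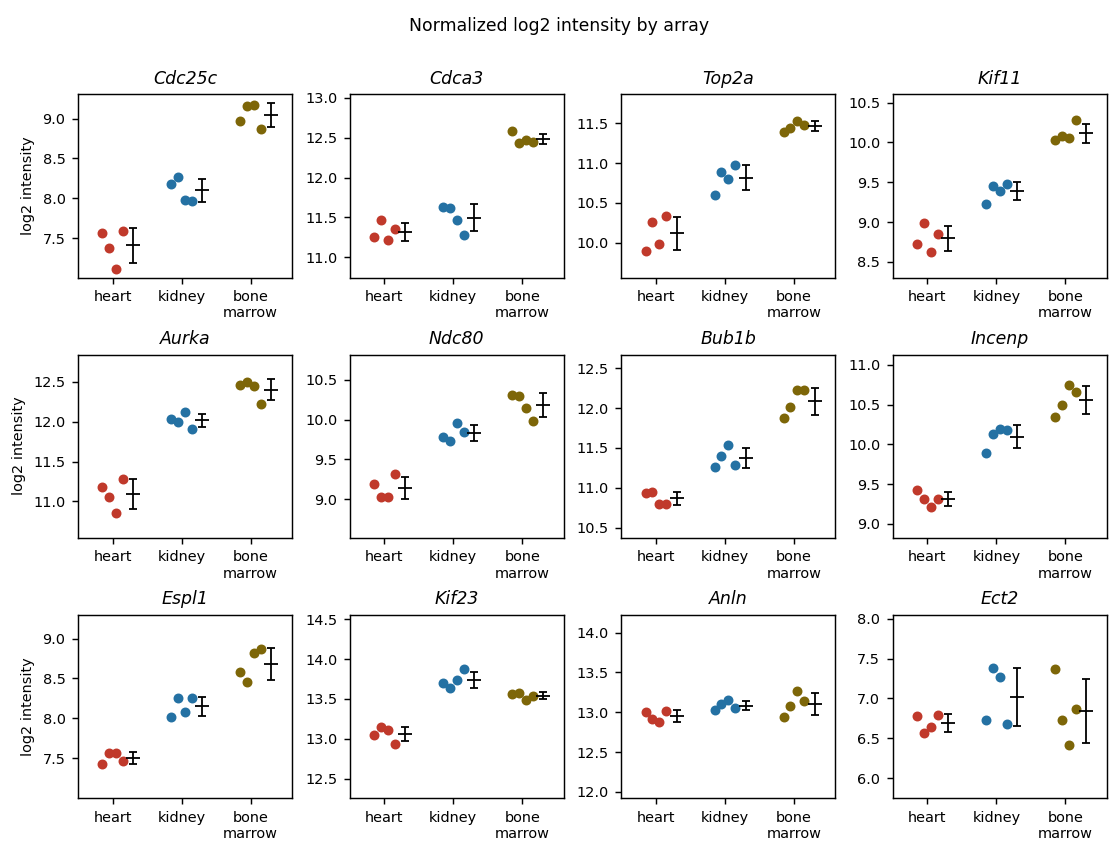
Normalized log2 intensity of 12 members on each array (points), with mean ± SD per tissue (4 arrays each) beside them; axes differ between panels. From Cdc25c to Espl1 the bone marrow points are highest, while for Kif23 the kidney points are highest. For Ect2 all tissues overlap, and for Anln the bone marrow points overlap both others.

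The 9 members that no test reached, Ccna2, Ccnb2, Hmmr, Cenpe, Nuf2, Bub1, Ttk, Ube2c and Racgap1, had raw values near background, from 93.2 to 169 units on the probe entry taken, beside array medians of 129.8 to 149. That says nothing of how their RNA differed. Counted by probe rather than by gene, 44 of the 70 entries were bright enough, of which 40 fell and 0 rose in heart cells, 29 fell and 1 rose in kidney cells, and 34 rose and 0 fell in kidney minus heart cells. Over all 20649 probes kept, 5779 fell and 4868 rose in heart cells, 4294 fell and 3798 rose in kidney cells, and 4814 rose and 4222 fell in kidney minus heart cells.

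The place of kidney cells between the other cultures varied from gene to gene. On a scale where the heart mean is 0% and the bone marrow mean 100%, the 24 members that fell in heart cells had kidney means at a median of 54.1%. Cdca3 at 15.3%, Nusap1 at 19% and Cdc20 at 32.6% lay nearest to heart, and Aurka at 70.3%, Prc1 at 79.9%, Tpx2 at 118% and Kif23 at 141% lay nearest to or beyond bone marrow. Each position rests on the 1 probe entry used. The other Cdc20 entries differed more between kidney and heart cells (0.46, 0.26 and 0.41, against 0.22). Against bone marrow MSC, the other Kif23 probes changed by 0.03, 0.02 and -0.04 in kidney cells, none past the test. The Tpx2 kidney change did not pass either (adjusted p = 0.476). For the 3196 genes of the whole array that fell in heart cells the median was 56.2%, and for 21 S-phase genes it was 75.1%. These positions are descriptions, and differences between them were not tested.

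Of 13 tested genes of the MuvB, MYB, FOXM1 and E2F list, which holds activators and repressors of cell cycle genes, 9 fell in heart cells and 2 rose, with a list median of -0.50. Over all genes 29.6% fell in heart cells and 26.4% rose. Mybl2, which joins MuvB at the start of the mitotic programme, fell by 2.65 ± 0.14 on the log2 scale in heart cells (adjusted p = 4.53e-12), while its kidney change of -0.17 ± 0.14 did not pass (adjusted p = 0.361). Rb1, the retinoblastoma protein that restrains E2F, rose by 1.24 ± 0.09 (adjusted p = 6.61e-10) in heart cells and by 0.54 ± 0.09 in kidney cells (adjusted p = 7.15e-05). Its relative Rbl1 (p107) fell by 0.85 in heart cells. E2f5, named after its values were seen as the other gene that rose, changed by 0.42. Foxm1 and the MuvB subunit Lin54, also named after their values were seen, changed by -0.85 and -0.76 in heart cells (adjusted p = 1.31e-07 and 4.84e-08). In kidney cells each changed by -0.49 (adjusted p = 0.000203 and 2.52e-05), while 10 of the 13 did not pass there and 1, Rb1, rose.

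Members of other lists of the mitotic machinery also mostly fell in heart cells, where 29.6% of all genes fell and 26.4% rose. Of 7 tested entry kinases, phosphatases and Cks subunits 6 fell in heart cells, with a list median of -1.01, among them Bora, the cofactor by which Aurora A activates Plk1 (-1.70), the phosphatase Cdc25b (-1.16) and cyclin F, Ccnf (-1.03). The 1 that rose, Ensa, an inhibitor of the phosphatase PP2A, changed by 0.82 and was named after its value was seen. Of 17 condensin and cohesin genes 16 fell, with a median of -0.80, including the cohesin protector Sgo1 (-1.43), the condensin II subunit Ncapg2 (-1.42) and sororin, Cdca5 (-1.14). Among 24 other kinetochore genes, with a median of -0.63, 21 fell, with Oip5 (-1.51), which helps to load CENP-A, Nsl1 (-1.36) and Cenpi (-1.21) changing most, and 1 rose, Cenpt (0.29, named after its value was seen). Among 23 other spindle, centrosome and midbody genes 22 fell, with a median of -0.93, led by Cep55, which recruits the abscission machinery (-1.54), Shcbp1 (-1.29) and Troap (-1.24).

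Of 12 APC/C subunits and inhibitors, 4 fell in heart cells and 8 did not pass, a share lower near the 29.6% of all genes. The catalytic subunit Anapc11 was detected on 0 heart arrays and on all 4 bone marrow arrays, at least 1.78-fold lower in heart cells (adjusted p = 5.6e-05), and Cdc23 and the coactivator Fzr1 changed by -0.67 and -0.52. The APC/C list had a median of -0.13 in heart cells and of -0.13 in kidney cells, where 5 fell and 1 rose (Ube2s, which extends ubiquitin chains, 0.90, named after its value was seen). In kidney cells against bone marrow MSC, 2 of the 13 regulators fell and 1, Rb1, rose, 3 of the 7 entry genes fell and 1, Ensa, rose, and 12 of the 17 condensin and cohesin genes, 11 of the 24 kinetochore genes and 12 of the 23 spindle genes fell, where 24.3% of all genes fell and 19.9% rose. The share of regulators that fell lay below that of all genes.

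Genes of S phase were counted beside the mitotic ones. All 21 tested fell in heart cells, 15 of them at least 2-fold, where 29.6% of all genes fell and 5.59% fell at least 2-fold. The median log2 change was -1.20. The largest falls were those of the replication factors Gins1 (-1.94) and Mcm10 (-1.67) and the ribonucleotide reductase subunit Rrm2 (-1.77). In kidney cells 10 of the 21 fell and 11 did not pass, with a median of -0.29, against 20 of 26 mitotic members and a median of -0.45. The share of all genes that fell in kidney cells was 24.3%. Kidney cells exceeded heart cells for all 21, with a median of 0.96, against 0.57 for the mitotic members. That comparison called 24.9% of all genes higher. Whether the lists differ from each other was not tested.

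**Figure D5:**
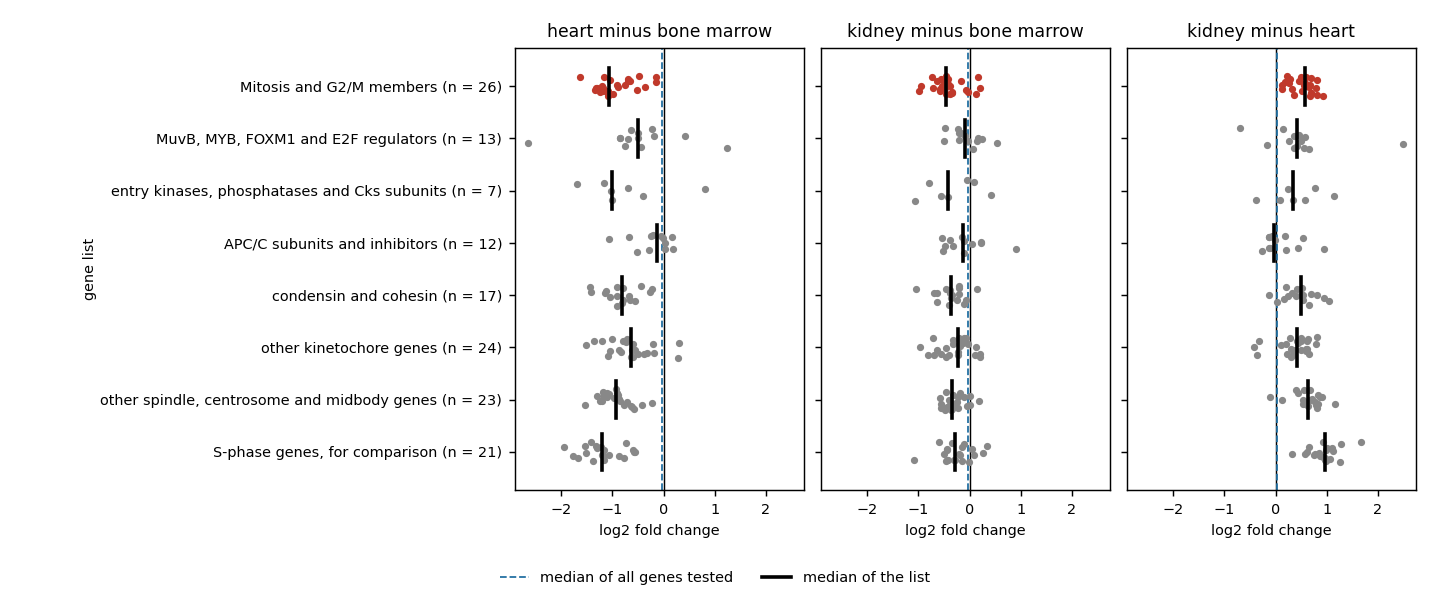
Log2 fold change of each tested gene (points) in the mitotic members (red) and 7 other lists (grey), with the list median (black bar) and the median of all tested genes (dashed line), in the 3 comparisons. In heart minus bone marrow the medians of the lists run from -1.20 for S-phase genes to -0.13 for the APC/C, and that of the mitotic members is -1.06.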

How the data were processed

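The members and gene lists were chosen with earlier results of these data known. The authors deposited a table of probe intensity, not normalized per the file headers, and beside each value a detection fraction from 0 to 1 that rises with the signal and was read as 1 minus a detection p-value. A second deposited table of intensity was made by the authors with lumi, per the submitters' processing notes, and served only as an alternative. The raw table has 45281 entries under 35746 identifiers, of which 6798 repeat; each entry was treated as a probe, and which entry the annotation describes is not given in the sources used here. Named probes came from the platform annotation.

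Intensities were background-corrected, quantile-normalized and put on a log2 scale with neqc (offset 16) of limma 3.58.1 in R 4.3.3. Probes with a detection fraction above 0.95 on at least 4 of 12 arrays were kept (20649), and the kept probe with the highest mean stood for a gene (10797). All 12 arrays entered 1 linear model with a term for each tissue (lmFit, then eBayes with trend). A gene was called at an adjusted p under 0.05, two-sided, with Benjamini-Hochberg adjustment over all genes. Errors of changes are SE. The number of arrays limits the precision. The fit was tested on simulated data.

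Per-array values are given for the member of each role with the largest heart change, the largest change in each direction of each comparison, a member called against the majority and members that passed nowhere; other lists give up to 3 genes with the largest heart change. Promoters are those of RefSeq. Same-numbered arrays of different tissues did not deviate together (correlations -0.20 to 0.13), so numbers were not used as pairs.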

Additional observations from a re-analysis of the deposited data

Results flagged for a closer look

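In 5 of the 78 sets of 4 arrays (26 members in 3 tissues), 1 array lay far from the other 3; chance alone flags about 1 set in 20. Aurkb was flagged in heart cells and in kidney cells. Heart replicate 3 read 9.43, below 9.74 to 9.80 on the other heart arrays. Kidney replicate 1 read 10.21, below 10.25 to 10.26, a small gap in a tight set. Tpx2 read 9.66 on kidney replicate 3, above 9.13 to 9.19 on the others. In bone marrow MSC, Aurka read 12.22 on replicate 4, below 12.45 to 12.50, and Cenpa read 14.46 on replicate 1, above 14.21 to 14.23. Causes were not tested.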

How the results depend on the processing

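The number of arrays and background signal limit what could be measured: 9 members were never tested. Without background correction the members' median change was -0.91 in heart minus bone marrow and 0.49 in kidney minus heart, and with no detection filter, which lets in dim members, -0.74 and 0.45. The mean over a gene's kept probes left 0 members higher in kidney minus bone marrow. With no scaling between arrays, an alternative added after the data were seen, the medians were -0.82 in heart minus bone marrow and -0.15 in kidney minus bone marrow, with 2 members higher and 4 lower in kidney minus bone marrow. Leaving out 1 array at a time, heart minus bone marrow had 24 to 25 members lower and a median of -1.11 to -1.0, kidney minus bone marrow 0 to 1 higher, 20 lower and a median of -0.47 to -0.39, and kidney minus heart 19 to 22 higher and a median of 0.54 to 0.59. With the replicate number as a block, 24 members were lower in heart minus bone marrow, 20 lower and 1 higher in kidney minus bone marrow, and 20 higher in kidney minus heart. The arrays share only a number: an array's best match in the other tissue had its own number for 1 of 8 arrays in heart minus bone marrow, 3 of 8 in kidney minus bone marrow and 4 of 8 in kidney minus heart. No called direction reversed under any of these alternatives, or under the authors' table, probes detected on all arrays, first entries only or 2 tissues fitted alone.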
